A study of Arabidopsis thaliana with 4 samples.

Results

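TRI (AT2G29330) is annotated as a tropinone reductase gene of Arabidopsis thaliana and sits in a row of tandem tropinone reductase-like genes on chromosome 2. The cluster was taken as every probe set whose single annotated gene has a locus from AT2G29290 to AT2G29370, with no condition on signal. This gave 8 probe sets of the 22746 on the array that are not controls. The RefSeq gene table lists 9 genes in that range, and the ninth, SAG13 (AT2G29350), was not analysed here. Expression was measured on 4 Affymetrix ATH1 arrays of roots from Columbia seedlings, at 6 days after germination, with 2 arrays per preparation. In the first preparation, root cell walls were digested and the released protoplasts were passed through a cell sorter with all cells kept (sorted protoplasts). In the second preparation, RNA came from intact roots (whole roots). Both preparations were of roots kept on 140 mM NaCl for 1 hour beforehand, so no value here is from roots without salt. The series asks how protoplasting and sorting alter the expression of genes in such roots. The cluster was picked because TRI has one of the lowest differences between these preparations, so the differences of its members are given as descriptions, and where limma's fit calls one of them, that call is no independent test.

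Tropinone reductases belong to the short-chain dehydrogenases/reductases, a large superfamily of enzymes that use NAD(H) or NADP(H) to reduce carbonyl groups or oxidise alcohols. In alkaloid-making Solanaceae such as Datura and Hyoscyamus, tropinone reductase I reduces tropinone to tropine, the alcohol from which hyoscyamine and scopolamine are made. Arabidopsis has a set of related genes, most of them in tandem on chromosome 2, and the substrates its plants use them for are largely unsettled. SAG13, within the tandem row, is widely used as a marker of leaf senescence and stress.

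TRI was well above the low end of the array in whole roots and near it in sorted protoplasts. Its signal was 12.8 and 34.9 on the sorted-protoplast arrays, against 230 and 372 on the whole-root arrays. The groups did not overlap, and the lowest whole-root value was far above the highest sorted-protoplast value. The mean was 23.8 ± 15.6 in sorted protoplasts and 301 ± 101 in whole roots (SD, n = 2), a ratio of sorted protoplasts to whole roots of 0.0792. Within each array, TRI stood above 19.1% and 33.6% of probe sets in sorted protoplasts and above 72.1% and 79.3% in whole roots.

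On the scale of log2(signal + 16), the difference of TRI, sorted protoplasts minus whole roots, was -3.01 ± 0.41 (SE from limma's fit), with a 95% interval from -3.92 to -2.10. One sorted-protoplast value lay under the offset of 16, so this difference understates the ratio, and with an offset of 1 it was -3.72. Of 13647 probe sets past a filter on low signal, 25 had a difference as low as that of TRI or lower (0.183%). TRI was among the 561 probe sets called lower by limma, with an adjusted p under 0.05 (4.11% of those tested), which is the contrast it was chosen on. Leaving out 1 array moved its difference between -3.42 and -2.60, and it was not called without whole-root replicate 2. In these bulk samples, fewer cells of a type and less RNA per cell cannot be told apart.

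The other 7 members lay below the signal filter, at a signal of about 51.3, and TRI passed it through its whole-root signal. Of their 28 values 10 were under the offset. The 8 members had 7 values under the offset among 16 from sorted protoplasts, against 4 among 16 from whole roots. MAS5 signals at this level are imprecise, and the differences and SE of these 7 members are from a fit with no signal filter.

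**Figure D1:**
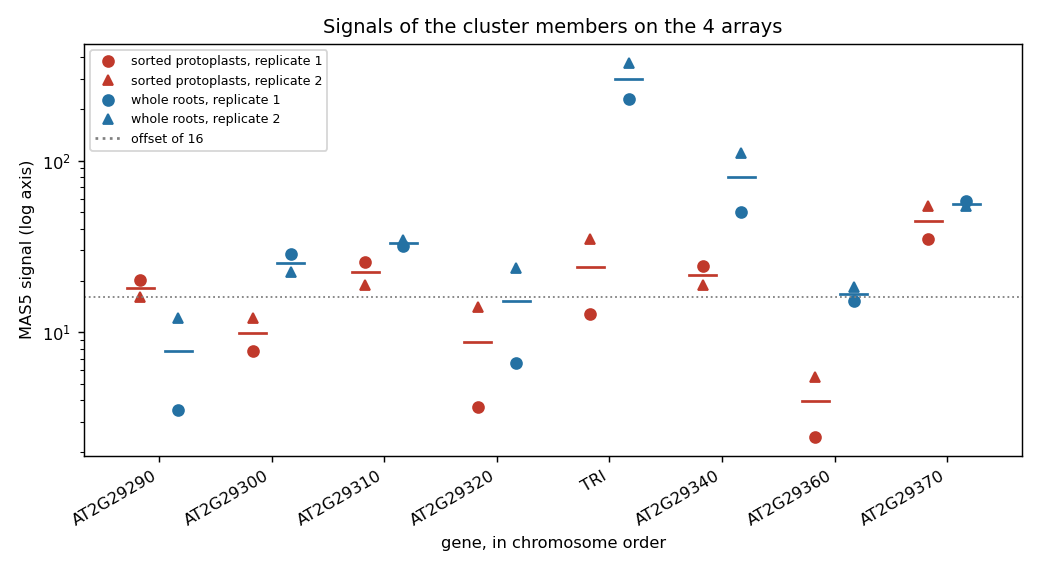
MAS5 signal (log axis) of the 8 cluster members, in chromosome order, with sorted protoplasts (red) left of whole roots (blue), 1 point per array and a line at each group's mean. TRI on the whole-root arrays, at 230 and 372, is the highest pair drawn, and the dotted line is the offset of 16.

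AT2G29340, the next gene after TRI, had signals of 24.2 and 18.8 in sorted protoplasts, against 49.9 and 111 in whole roots. Both sorted-protoplast values were below both whole-root values, which differed from each other more than the sorted-protoplast values did. Its log2 difference was -1.29 ± 0.41 (95% interval -2.29 to -0.29), the lowest after TRI.

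AT2G29360, beyond SAG13 in the row, had 2.45 and 5.50 in sorted protoplasts, against 15.1 and 18.3 in whole roots. The groups were apart, but 3 of the 4 values lay under the offset. The log2 difference was -0.71 ± 0.21 (95% interval -1.22 to -0.21). AT2G29300 had 7.77 and 12.1 in sorted protoplasts, against 28.5 and 22.5 in whole roots, and a log2 difference of -0.68 ± 0.25 (95% interval -1.29 to -0.07). It too was lower on both sorted-protoplast arrays. With an offset of 1 the log2 differences of AT2G29360 and AT2G29300 were -1.90 and -1.30.

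The other 4 members had intervals that include 0. AT2G29310, on the side of TRI toward AT2G29290, had 25.6 and 19.0 in sorted protoplasts, against 31.6 and 34.5 in whole roots, with a log2 difference of -0.36 ± 0.29. Both of its sorted-protoplast values were the lower ones. AT2G29320, which directly precedes TRI, had 3.66 and 14.0 in sorted protoplasts, against 6.57 and 23.6 in whole roots. These groups overlapped, and within each group replicate 2 was the higher. Its log2 difference was -0.30 ± 0.35, and it was 0.11 without whole-root replicate 2. AT2G29370, the last gene of the row, had 35.1 and 54.1 in sorted protoplasts, against 58.2 and 54.2 in whole roots. The nearest values of the groups were almost equal, and the log2 difference was -0.27 ± 0.35. AT2G29290, the first gene of the row, had 20.2 and 16.04 in sorted protoplasts, against 3.54 and 12.04 in whole roots. It is the member with the higher signal on both sorted-protoplast arrays, with a log2 difference of 0.54 ± 0.26 (95% interval -0.09 to 1.17).

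Of the 8 members 6 were lower in sorted protoplasts with no overlap of the groups, 1 was higher with no overlap, and 1 overlapped. Over all 22746 probe sets, 32.7% were lower and 18.6% higher with no overlap. Below the filter these shares were 27.3% and 14.3%. The log2 difference was below 0 for 7 of the 8 members, where it was below 0 for 58.8% of all probe sets. The median log2 difference of the 8 was -0.52, and -0.36 for the 7 without TRI, against -0.11 over all probe sets and -0.07 over those below the filter. In the fit with no filter 1 member was called lower, TRI, and 0 were called higher, where 0.602% and 1.73% of all probe sets were called. These counts come from the contrast the cluster was chosen on.

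Whole-root replicate 2 was higher than replicate 1 for 6 of the 8 members, AT2G29300 and AT2G29370 being the exceptions, where 53% of all probe sets were higher on that array. Sorted-protoplast replicate 2 was higher than replicate 1 for 5 members, against 49.6% of all probe sets. TRI was 1.62 times as high on the second whole-root array as on the first, and 2.72 times as high on the second sorted-protoplast array as on the first. The ratio of 3' to 5' signal of the GAPDH control was 3.45 and 9.96 in sorted protoplasts and 15.0 and 4.56 in whole roots, so it did not separate the groups.

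The nearest genes on each side with a singly annotated probe set did not share one direction. The genes directly next to the row were not analysed here. Before AT2G29290 they were AT2G29260, AT2G29210 and AT2G29180, with 3, 8 and 13 annotated genes between them and AT2G29290. AT2G29260, itself tropinone reductase-like, had 36.0 and 26.2 in sorted protoplasts, against 33.9 and 34.0 in whole roots, a log2 difference of -0.09 ± 0.30. AT2G29210 and AT2G29180 had differences of -0.74 ± 0.41 and -0.93 ± 0.31, the second from below the filter. After AT2G29370 they were AT2G29500, AT2G29510 and TUB7, a beta-tubulin gene, with 16, 17 and 24 annotated genes between them and AT2G29370. AT2G29500, a small heat shock protein gene, had 751 and 942 in sorted protoplasts, against 93.4 and 70.2 in whole roots. It rose by 3.14 ± 0.36 on the log2 scale (limma adjusted p = 0.000988) and was called under each of the 13 alternatives. AT2G29510 had a difference of 0.46 ± 0.44 and TUB7 one of 0.26 ± 0.41, and neither passed. Of all tested probe sets, 6.38% were called higher.

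**Figure D2:**
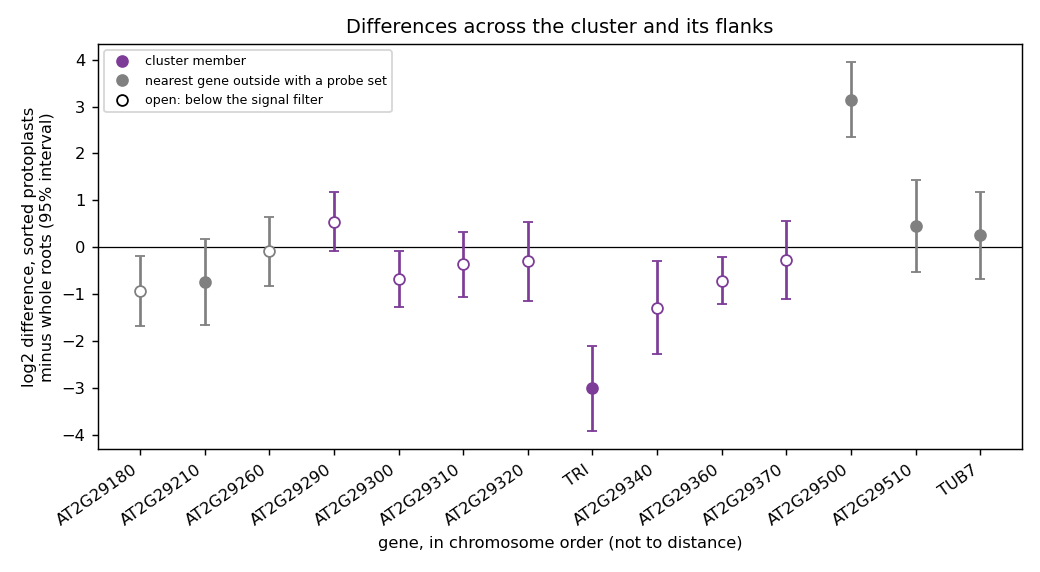
Log2 difference, sorted protoplasts minus whole roots, with its 95% interval from limma, in chromosome order and not to distance. Points are the 8 cluster members (purple) and the 3 nearest genes on each side with a singly annotated probe set (grey). Open points are below the signal filter. TRI at -3.01 is the lowest point and AT2G29500 at 3.14 the highest.

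Outside the row, 6 more Arabidopsis tropinone reductase-like genes were looked at, and all had a probe set. AT5G06060, on chromosome 5, was the 1 that passed the signal filter. It had 211 and 236 in sorted protoplasts, against 423 and 279 in whole roots. Both sorted-protoplast values were lower, but its log2 difference of -0.59 ± 0.37 did not pass (limma adjusted p = 0.343, and 0.332 to 0.789 under the alternatives). The other 5 were below the filter. AT2G29150 and AT2G29170 lie before AT2G29180 on the side of the row where AT2G29260 lies. AT2G29150 had 0.914 and 4.97 in sorted protoplasts, against 15.2 and 23.1 in whole roots, with a log2 difference of -0.89 ± 0.23. It was lower on both sorted-protoplast arrays, with 3 of the 4 values under the offset. AT1G07440 had 50.8 and 52.6 in sorted protoplasts, against 32.7 and 42.1 in whole roots, a log2 difference of 0.35 ± 0.32. AT2G29170, AT2G29260 and AT2G30670 had differences from -0.09 to 0.10, and their groups overlapped. Of these 6 genes 2 were lower with no overlap, 1 was higher with no overlap and 3 overlapped, where 32.7% of all probe sets were lower and 18.6% higher with no overlap.

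**Figure D3:**
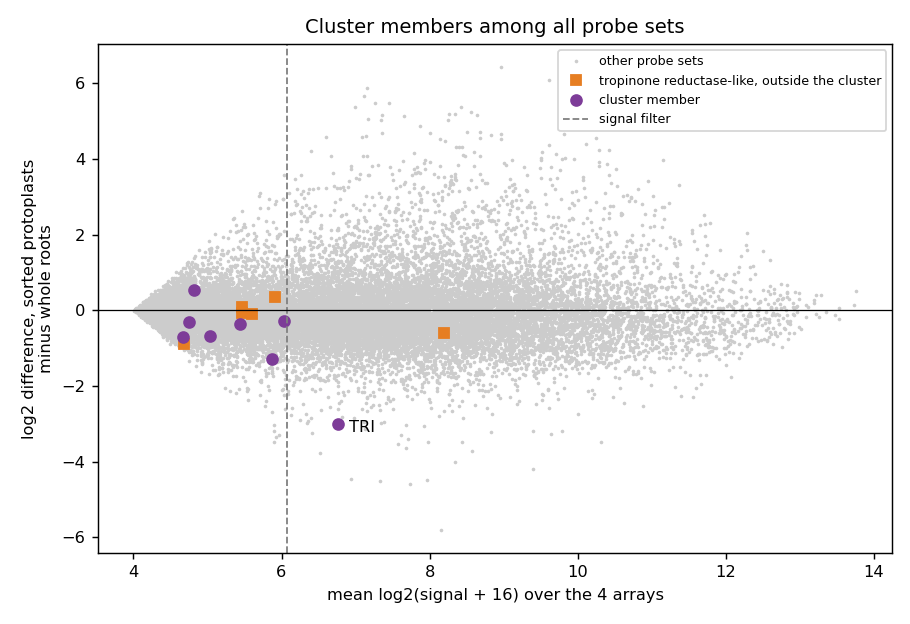
Mean log2(signal + 16) over the 4 arrays against the log2 difference, sorted protoplasts minus whole roots, for all 22746 probe sets (grey). The 8 cluster members are purple, the 6 tropinone reductase-like genes outside the row are orange, and the signal filter is a dashed line. Of these 14 genes 2 lie right of the filter, TRI and AT5G06060.

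Among other short-chain dehydrogenases/reductases, 8 of 21 listed genes had a singly annotated probe set and 4 were tested. Of these 2 fell, 0 rose and 2 did not pass, where 4.11% of all tested probe sets were called lower and 6.38% higher. The median log2 difference was -1.21 over these 4, against -0.16 over all tested probe sets. It was -0.64 over the 8 measured, against -0.11 over all probe sets. The list was written with earlier results of these data known, so these counts and medians are descriptions. Of the 4 below the filter, NOL and PORB, genes of chlorophyll breakdown and synthesis, and AT2G47120 had differences of 0.44, 0.21 and 0.44, and AT2G47150 had one of -0.70. AT1G24360, a plastid ketoacyl-ACP reductase of fatty acid synthesis, had 1387 and 1371 in sorted protoplasts, against 5565 and 3095 in whole roots. It fell by 1.58 ± 0.39 on the log2 scale (limma adjusted p = 0.0315). AT3G26770 had 80.7 and 51.2 in sorted protoplasts, against 220 and 215 in whole roots. It fell by 1.53 ± 0.35 (limma adjusted p = 0.0240). AT4G03140 and AT3G26760 had differences of -0.88 ± 0.34 and -0.57 ± 0.42. The falls of AT1G24360 and AT3G26770 were not called when either whole-root array was left out, or with no filter. The call of AT1G24360 was also lost without sorted-protoplast replicate 1 and with array medians set equal, and that of AT3G26770 without sorted-protoplast replicate 2. Over all the alternatives the log2 difference ranged from -2.03 to -1.16 for AT1G24360 and from -1.91 to -1.12 for AT3G26770.

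SAG13 lies in the row, so other senescence-associated genes were listed, and 4 of 14 had a singly annotated probe set, all tested. Of these 2 rose, 0 fell and 2 did not pass, where 6.38% of all tested probe sets were called higher and 4.11% lower. Their median log2 difference was 1.33, against -0.16 over all tested probe sets. This list too was written with earlier results known, so its count and median are descriptions. SAG101, a lipase-like partner of the defence regulator EDS1, had 104 and 279 in sorted protoplasts, against 18.3 and 19.4 in whole roots. It rose by 2.43 ± 0.44 on the log2 scale (limma adjusted p = 0.00818), and it passed the signal filter through its sorted-protoplast signal. WRKY53, a transcription factor of leaf senescence, had 352 and 508 in sorted protoplasts, against 89.6 and 99.2 in whole roots, and rose by 1.99 ± 0.36 (limma adjusted p = 0.00834). SAG29, a sucrose transporter gene, and WRKY6 had differences of 0.66 ± 0.35 and 0.48 ± 0.39. SAG29 too, with a whole-root mean of 45.0, passed the filter through its sorted-protoplast signal. The rises of SAG101 and WRKY53 were not called when either whole-root array was left out. That of SAG101 was not called with no filter, and without sorted-protoplast replicate 2 SAG101 was below the filter. That of WRKY53 was not called with spike-in scaling. Over the alternatives the log2 difference ranged from 1.53 to 3.11 for SAG101 and from 1.57 to 2.25 for WRKY53.

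The genes most like TRI were sought among 1055 tested probe sets with a gene symbol, by the Euclidean distance between log2(signal + 16) values centred over the 4 arrays. The closest were EXPA18, an expansin of root hairs, at a distance of 0.821, and GPDHC1, for a glycerol-3-phosphate dehydrogenase of the cytosol, at 0.881. JAL22 and JAL33, jacalin-related lectin genes, followed at 0.987 and 1.02, and OSM34, an osmotin-like gene, at 1.04. JAL33 had 892 and 1762 in sorted protoplasts, against 4480 and 5864 in whole roots. The measure covers 4 arrays, so it mainly reflects the difference between the groups. No other cluster member came as close to TRI as these 5, the nearest being AT2G29340 at 1.88. These 5 were picked as the closest of 1055, while the other members were not picked by closeness and lay below the filter. The offset shrinks differences at that signal, so the comparison cannot show whether the members share the pattern of TRI.

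Epidermal markers were lower on the same arrays as TRI. Of the 7 root hair and epidermis markers listed, 3 had a singly annotated probe set, EXPA7, EXPA18 and the bHLH gene ATMYC1. All 3 fell in limma's test, where 4.11% of all tested probe sets did. Their summed signal was 344 and 409 in sorted protoplasts, against 1713 and 2057 in whole roots, and none was at 0. Their log2 differences were -2.39 ± 0.35 for EXPA18, -2.29 ± 0.38 for ATMYC1 and -1.95 ± 0.39 for EXPA7. ATMYC1, with a mean of 49.5 in sorted protoplasts and 305 in whole roots, passed the signal filter through its whole-root signal. The 3 falls were not called when either whole-root array was left out, nor was that of EXPA7 with no filter. The list was written with earlier results of these data known, so these calls are no independent test. Whether the shift of these markers has a part in the values of TRI was not tested. The 3 stele and xylem markers measured, PHV, LHW and IRX15, summed to 631 and 402 in sorted protoplasts, against 313 and 334 in whole roots. PHV and LHW had log2 differences of 0.65 ± 0.33 and 0.04 ± 0.39 and did not pass, and the groups of LHW overlapped. Of these markers 1 rose, IRX15, where 6.38% of all tested probe sets did. With a whole-root mean of 51.0, just under the filter at about 51.3, IRX15 passed it through its sorted-protoplast signal. The rise of IRX15 was not called when either whole-root array or sorted-protoplast replicate 1 was left out, with no filter or with spike-in scaling. The shoot genes RCA and LHCB4.1 summed to 279 and 142 in sorted protoplasts, against 320 and 437 in whole roots, and neither passed, except that LHCB4.1 was called lower without sorted-protoplast replicate 1. Cortex had 1 measured marker, AT1G62500, below the filter. It had 17.5 and 2.87 in sorted protoplasts, against 32.8 and 16.9 in whole roots. Its groups overlapped, and its log2 difference was -0.67 ± 0.36. Endodermis, phloem and root cap markers were not analysed here.

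**Figure D4:**
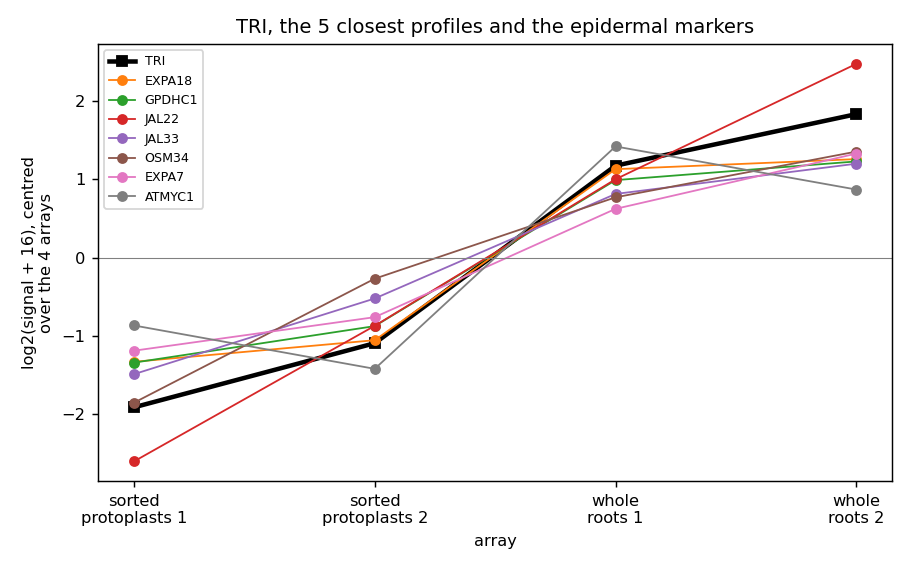
Log2(signal + 16), centred over the 4 arrays, for TRI (black), the 5 genes with the closest profiles, and the epidermal markers EXPA7 and ATMYC1; lines join the values of 1 gene and carry no order of replicates. Each gene is below 0 on both sorted-protoplast arrays and above 0 on both whole-root arrays.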

How the data were processed

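Per the labels' protocols, RNA of the 2 sorted-protoplast and 2 whole-root samples went through 2 cycles of amplification and was biotin-labelled. The authors deposited 1 linear signal intensity for each probe set on each array. Per the submitters' processing notes these come from MAS5, with no version given there. The trimmed mean of the deposited intensities was 250.02 to 250.03 on each array (2% left out at each end), so the arrays had been scaled to one level. The number of arrays limits the precision, and array medians were 79.0 to 90.2.

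Names came from the platform annotation, updated to RefSeq symbols (TAIR10.1 table). Of 22746 probe sets that are not controls, 13513 had 1 gene, 503 several, and 8730 were not listed. Genes without a singly annotated probe set may be measured by a probe set that was not listed. No build is named for the array, so no coordinates are given, and no sequences were used. All 8 members have probe sets of the plain _at type, but cross-hybridization between tandem copies was not tested.

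Signals were taken as log2(signal + 16). Left out were control probe sets and, of the rest, the 40% with the lowest mean, so that 13647 stayed. Sorted protoplasts minus whole roots was fitted with limma 3.58.1 in R 4.3.3 (lmFit, eBayes with a trended prior), with Benjamini-Hochberg adjustment over all probe sets tested and a threshold of 0.05. The script was tested on simulated data with differences planted only in probe sets of above-median mean. That test did not cover the fit with no filter, from which the members below the filter were taken. Groups and replicate numbers came from the titles, and 0 columns were unmapped. Whether replicates were grown separately is not in the labels, so the p-values speak for the spread of these samples alone, and that spread may be technical.

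The members, lists and rules were chosen with earlier results of these data known. Named were all members and the 3 nearest genes on each side with a singly annotated probe set. Also named were the 5 profiles closest to TRI among genes with a symbol, and all tested members of the lists. JAL33's signals and the below-filter genes of the lists were added after their values were seen. Promoter motifs that had been planned were not searched. As alternatives the offset, filter, array scaling, prior variance and threshold were changed, and there was a replicate block, and each array left out in turn. Crossed replicate numbers were added after seeing the data.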

Additional observations from a re-analysis of the deposited data

How the results depend on the processing

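The difference of TRI stayed below 0 under each of 13 alternatives, and of 104 values of the 8 members under them 2 changed sign, both of AT2G29320 (0.11 without whole-root replicate 2 and 0.00 without sorted-protoplast replicate 1). For TRI, -3.01, the difference was -3.72 with an offset of 1 and -2.04 with one of 64. The median of the members, -0.52, was -1.002 and -0.21 with these offsets, -0.46 with array medians set equal, -0.43 with quantile normalization, -0.77 with spike-in scaling, and -0.70 to -0.48 with 1 array left out. Spike-in scaling moved the median of all tested probe sets by -0.42, and relative to that median TRI was at -2.82, against -2.86 as deposited. The call of TRI was lost without whole-root replicate 2, where its interval was -3.86 to -1.51, so with 1 array left out 0 to 1 members were called lower.

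Calls over all probe sets, 870 higher and 561 lower, were 394 and 137 with no filter, 393 and 107 at an adjusted p under 0.01, 421 and 680 with spike-in scaling, and 145 to 981 and 15 to 735 with 1 array left out. The share of higher calls moved with scaling, with 933 higher and 388 lower when medians were set equal. The 2 short-chain dehydrogenase calls became 0 with no filter or an adjusted p under 0.01, 1 with medians set equal, and 0 to 1 with 1 array left out. The 2 senescence calls became 1 with no filter or spike-in scaling, and 0 to 2 with 1 array left out. The cause of these shifts was not tested, except that a stricter threshold lowers counts by construction. Without a sorted-protoplast array the calls over all probe sets were more than with all arrays, and without a whole-root array they were fewer.

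Replicates 1 and 2 share only a number, and samples of one number deviated from their group means with a correlation of -0.156 over probe sets. A replicate block on the number gave 1123 higher and 787 lower calls, TRI stayed at -3.01 with 1 member called lower, and list counts were unchanged at 2 lower and 2 higher. In that fit, and with spike-in scaling, limma's prior degrees of freedom were infinite, so each probe set's own variance had no weight. With crossed replicate numbers the calls were 1137 and 922. Low signal limits the 7 members below the filter, since the offset exceeded 19.6% to 22.1% of each array's values.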
